A study of Mus musculus with 4 samples.

Results

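At 746 places on mouse chromosomes 1 to 19, peaks of all 3 FLAG ChIP-seq libraries of the series met outside called H3K4me2. They were chosen from 30368 Etv6 peaks. Each member is an Etv6 peak that overlaps a Pax6 peak and an EGFP_OK peak by at least 1 bp, and whose summit, the highest point of the peak, lies in no H3K4me2 peak. Among the 2758 Etv6 peaks with both partners they made up 27.0% (95% exact binomial interval 25.4 to 28.7), and the other 2012 had their summit inside H3K4me2. Over all Etv6 peaks on these chromosomes, 14447 of 30368 summits, or 47.6% (47.0 to 48.1), lay outside. Because peak calls chose the members, their presence in the lists and their position against H3K4me2 are a description, as are the scores and folds that led to those calls.

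The cells were mouse neural progenitor-like cells of strain 129/SvJ, derived from embryonic stem cells, at passages 15 to 18, expanded with EGF and FGF-2 at 10 ng/ml. Anti-FLAG (M2) precipitation of chromatin gave 1 library for Pax6 (title naming NS and F-Pax6), 1 called EGFP_OK here (title naming N31, EGFP, OK and flag) and 1 for Etv6 (title naming NS and F-Etv6). An antibody to dimethylated lysine 4 of histone H3 gave 1 library, H3K4me2, whose title names N31, Oct4, EGFP and 0 hr. The labels name neither the tagged protein of EGFP_OK nor the relation of NS to N31. EGFP_OK and H3K4me2 share the N31 name and Pax6 and Etv6 the NS name, so cells and tagged protein cannot be told apart. No gene expression was measured, so the cell type was not checked against its markers. With 1 library per factor or mark, no value below has a replicate error and no difference between sets of sites has a test over samples. The binomial and median intervals cover counting over sites only, and neighbouring sites are not independent.

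Pax6 binds DNA through a paired domain and a homeodomain and is known for patterning the embryonic eye and forebrain and for its role in neural progenitors. Etv6 is an ETS family factor that acts mainly as a transcriptional repressor and is needed for blood stem cells. H3K4me2 marks promoters and enhancers that are active or poised, and sites without it lie apart from most regulatory elements recognised in this way. Chromatin precipitation measures a population of cells, in which occupancy in few cells and weak occupancy in all of them cannot be told apart.

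After removal of duplicates 5288154 tags were left in the Pax6 library and 21498324, 24071748 and 24550365 in those of EGFP_OK, Etv6 and H3K4me2. The weakest peak on chromosomes 1 to 19 held 10 tags in the Pax6 list, 19 tags for EGFP_OK, 18 tags for Etv6 and 17 tags for H3K4me2. "Outside H3K4me2" therefore means outside any called peak and does not measure the absence of the mark. Peaks were called without a control library, so no background from untagged cells was set against them.

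The 2 partners of Etv6 differed in how their shares related to H3K4me2. At sites shared by Pax6 and Etv6, an EGFP_OK peak was present at 746 of 5687 sites outside H3K4me2, or 13.1% (12.3 to 14.0), against 2012 of 6111 inside, or 32.9% (31.7 to 34.1). At sites shared by EGFP_OK and Etv6, a Pax6 peak was present at 746 of 1494 outside, or 49.9% (47.4 to 52.5), against 2012 of 4393 inside, or 45.8% (44.3 to 47.3). The EGFP_OK share was thus much lower outside the mark, while the Pax6 shares were close, with intervals that almost meet. The same contrast was seen over all Etv6 peaks, so it was not particular to sites with the other partner. An EGFP_OK peak was present at 1494 of all 14447 Etv6 peaks outside and at 4393 of all 15921 inside. For Pax6 the counts were 5687 outside and 6111 inside. Over all Etv6 peaks, both partners were present at 5.16% (4.81 to 5.54) of those outside H3K4me2 and at 12.6% (12.1 to 13.2) of those inside.

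Peak strength at the members was read from the authors' fold enrichment, the ratio of tags at the summit to the local background of the same library. In the Pax6 list the members had a median fold of 10.94 (95% interval of the median 10.49 to 11.28) and a range of 4.15 to 31.64, against a median of 10.275 (10.18 to 10.45) at sites of all 3 lists inside H3K4me2. For EGFP_OK the median was 7.355 (7.08 to 7.64) with a range of 2.89 to 26.96, against 6.64 (6.50 to 6.72) inside. Etv6 gave a median of 7.00 (6.83 to 7.27) with a range of 3.03 to 33.98, against 7.095 (6.99 to 7.27) inside. Pax6 and EGFP_OK medians were thus slightly higher outside, by intervals that do not overlap, and the Etv6 medians lay within each other's intervals. The Pax6 level was not particular to the members. At the 4941 sites of Pax6 and Etv6 without EGFP_OK outside H3K4me2, medians were 10.97 (10.83 to 11.09) in Pax6 and 6.99 (6.89 to 7.04) in Etv6. Over all peaks of each list the medians were 10.56 in Pax6, 7.02 in EGFP_OK and 6.25 in Etv6.

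**Figure D1:**
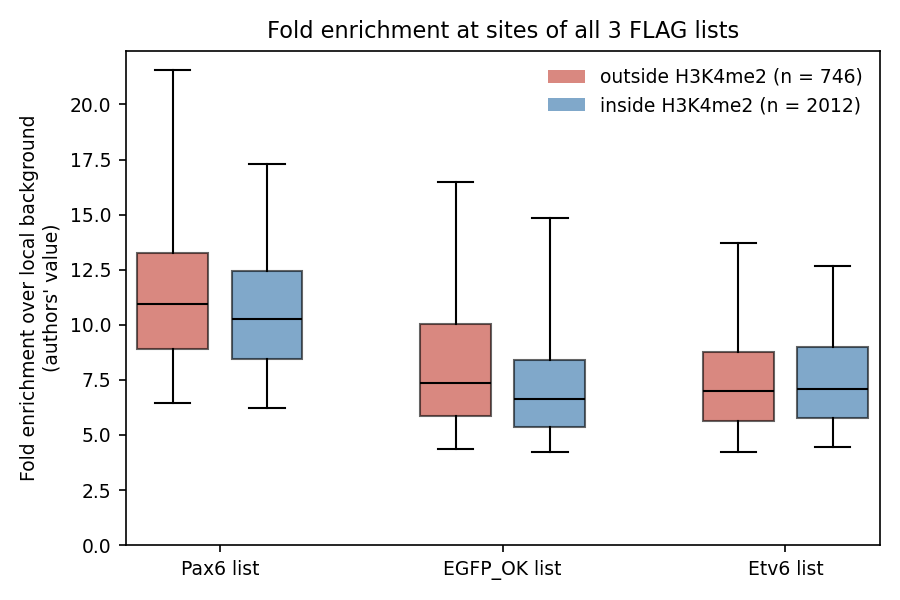
Fold enrichment over the local background (authors' value, linear axis from 0) at the 746 sites outside H3K4me2 (red, left of each pair) and the 2012 sites inside it (blue), in each FLAG list. Boxes span the quartiles, the line is the median and whiskers run to the 5th and 95th percentiles; the EGFP_OK boxes are the most separated, with medians of 7.355 and 6.64.

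Counted by folds of at least 10, the gap was seen in EGFP_OK. An EGFP_OK fold of at least 10 was reached by 191 members (25.6%, 22.5 to 28.9), against 316 sites inside H3K4me2 (15.7%, 14.1 to 17.4), and by 16.5% of all EGFP_OK peaks. For Etv6 the count was 112 members (15.0%, 12.5 to 17.8), against 323 inside (16.1%, 14.5 to 17.7), and 7.27% of all Etv6 peaks. In Pax6 it was 443 members (59.4%, 55.8 to 62.9), against 1093 inside (54.3%, 52.1 to 56.5), with 58.0% of all Pax6 peaks. The Pax6 share of the members is near that of the whole list, and its interval overlaps that of the sites inside. The Etv6 share was above its list's at sites of all 3 lists on either side of the mark. Outside sites without EGFP_OK had shares of 63.5% (62.2 to 64.9) in Pax6 and 11.5% (10.7 to 12.5) in Etv6. All 3 folds were at least 10 at 67 members (8.98%, 7.03 to 11.3), against 109 sites inside (5.42%, 4.47 to 6.50).

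The 2758 sites of all 3 lists were also divided into 4 equal parts by each value, and the share outside H3K4me2 was counted in the highest and the lowest part. By EGFP_OK fold, 36.9% (33.3 to 40.6) of the highest part and 20.4% (17.5 to 23.6) of the lowest lay outside. By Pax6 fold the shares were 33.96% (30.4 to 37.6) and 23.3% (20.2 to 26.7). By Etv6 fold they were 24.8% (21.6 to 28.2) and 29.7% (26.3 to 33.3), and by Etv6 score, the −log10 of the calling p-value times 10, 20.8% (17.8 to 24.0) and 36.1% (32.5 to 39.8). Strong EGFP_OK and Pax6 enrichment thus went with a higher share outside the mark, and strong Etv6 scores with a lower one. The ranking for EGFP_OK rested on the fold, since by EGFP_OK score the same parts had 28.7% (25.4 to 32.3) and 28.0% (24.6 to 31.5). Median EGFP_OK scores were also level, at 106.05 (99.8 to 112.26) at the members and 106.79 (103.07 to 110.95) inside. Peak width moved with these shares, with 19.6% (16.7 to 22.8) outside among the widest part of the Etv6 peaks and 37.2% (33.6 to 41.0) among the narrowest, and its part in them was not tested.

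Etv6 peaks of the members were narrower and held fewer tags than those inside. Their median width was 1230.5 bp (1201 to 1278), against 1420.5 bp (1385 to 1441) inside, and 1116 bp over all Etv6 peaks. They held a median of 72.5 tags (66 to 78), against 90 (87 to 93) inside. Pax6 peaks held a median of 24 tags (23 to 25) at the members and 23 (23 to 24) inside, and EGFP_OK peaks 55 (52 to 59) at the members and 59 (57 to 61) inside. Etv6 thus had the largest gap in tags of the 3 libraries, relative to its level. Across members, which share their libraries and are not replicates, Spearman's rho of the tags was 0.65 between Pax6 and Etv6, 0.27 between EGFP_OK and Etv6 and 0.24 between EGFP_OK and Pax6 (n = 746). Inside H3K4me2 the values were 0.67, 0.27 and 0.31 (n = 2012). By fold, in the same order, rho was 0.48, 0.34 and 0.36 at the members and 0.44, 0.25 and 0.30 inside. EGFP_OK thus stood apart less by fold than by tags.

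To compare libraries at one site, the tags of each peak were divided by the kept tags of its library. The ratio of Pax6 to Etv6 tags scaled in this way had a median of 1.52 (1.45 to 1.58) at the members, against 1.22 (1.19 to 1.25) at the sites inside H3K4me2 and 1.32 (1.31 to 1.34) over all 11798 Etv6 peaks with a Pax6 peak. At the 4941 sites of Pax6 and Etv6 without EGFP_OK outside H3K4me2 it was 1.43 (1.41 to 1.45). Such sites inside the mark were not described, so outside and inside could be compared only where an EGFP_OK peak was present. There the ratio was higher outside. A ratio of at least 2 was reached at 196 members (26.3%, 23.1 to 29.6), against 282 sites inside (14.0%, 12.5 to 15.6) and 1068 sites without EGFP_OK (21.6%, 20.5 to 22.8), with 17.2% over all Etv6 peaks that had a Pax6 peak. For EGFP_OK over Etv6 the median was 0.932 (0.863 to 0.974) at the members, against 0.7998 (0.762 to 0.829) inside and 0.930 (0.910 to 0.9501) over all 5887 Etv6 peaks with an EGFP_OK peak, so the members were at the level of all such peaks. An EGFP_OK ratio of at least 2 was found at 88 members (11.8%, 9.57 to 14.3), against 184 sites inside (9.15%, 7.92 to 10.5). The members' share is near the 12.5% of all Etv6 peaks with an EGFP_OK peak. Only sites called in both lists of a ratio enter it, and the Pax6 library had the fewest tags, so sites with Pax6 signal under its calling limit are missing from the Pax6 ratios. Tags were counted over each library's own peak, so a ratio does not compare the same bases. Median widths at the members and inside were 1230.5 and 1420.5 bp for Etv6 and 1068.5 and 1113.5 bp for Pax6. The part of width in the ratios was not tested.

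Members lay at widely different distances from H3K4me2, most of them over 10 kb away. Their median distance to the nearest H3K4me2 peak was 12071.5 bp (10351 to 13695), against 15077 bp (14267 to 15794) at the sites of Pax6 and Etv6 without EGFP_OK. Of the members, 104 lay within 1 kb (13.9%, 11.5 to 16.6), 231 at 1 to 10 kb (30.97%, 27.7 to 34.4), 354 at 10 to 100 kb (47.5%, 43.8 to 51.1) and 57 over 100 kb away (7.64%, 5.84 to 9.79). Without EGFP_OK, 7.45% (6.73 to 8.22) lay within 1 kb and 11.1% (10.2 to 12.0) over 100 kb away. Members were thus found more often within 1 kb of the mark and less often over 100 kb away than the sites without EGFP_OK, by intervals that do not overlap. Over all 14447 Etv6 peaks outside H3K4me2 the median distance was 12805 bp (12433 to 13193), which lies within the members' interval. The first quartiles were also close, at 4554.5 bp over all these peaks and 4315.5 bp at the members. Shares by distance were not counted over all these peaks, so the differences hold only against the sites without EGFP_OK.

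A small group of members sat in gaps of H3K4me2. H3K4me2 peaks lay on both sides within 1 kb at 30 members (4.02%, 2.73 to 5.69), against 23 sites without EGFP_OK (0.465%, 0.295 to 0.698). Such gaps were not counted over all Etv6 peaks outside H3K4me2. The Etv6 peak itself reached into H3K4me2 at 96 members (12.9%, 10.5 to 15.5) and into peaks on both sides at 29. The Pax6 summit was inside H3K4me2 at 32 members and the EGFP_OK summit at 40, while at 697 members (93.4%, 91.4 to 95.1) all 3 summits were outside. The nearest H3K4me2 peak held a FLAG summit for 361 members (48.4%, 44.8 to 52.0), against 44.0% (42.6 to 45.4) at the sites without EGFP_OK and 40.7% of all H3K4me2 peaks. It held summits of all 3 lists for 40 members (5.36%, 3.86 to 7.23), near the 4.06% of all H3K4me2 peaks. A site's own Pax6 or EGFP_OK summit counts here where it lies in that peak. The shares without such summits were not computed, so no excess around the members can be read from them.

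**Figure D2:**
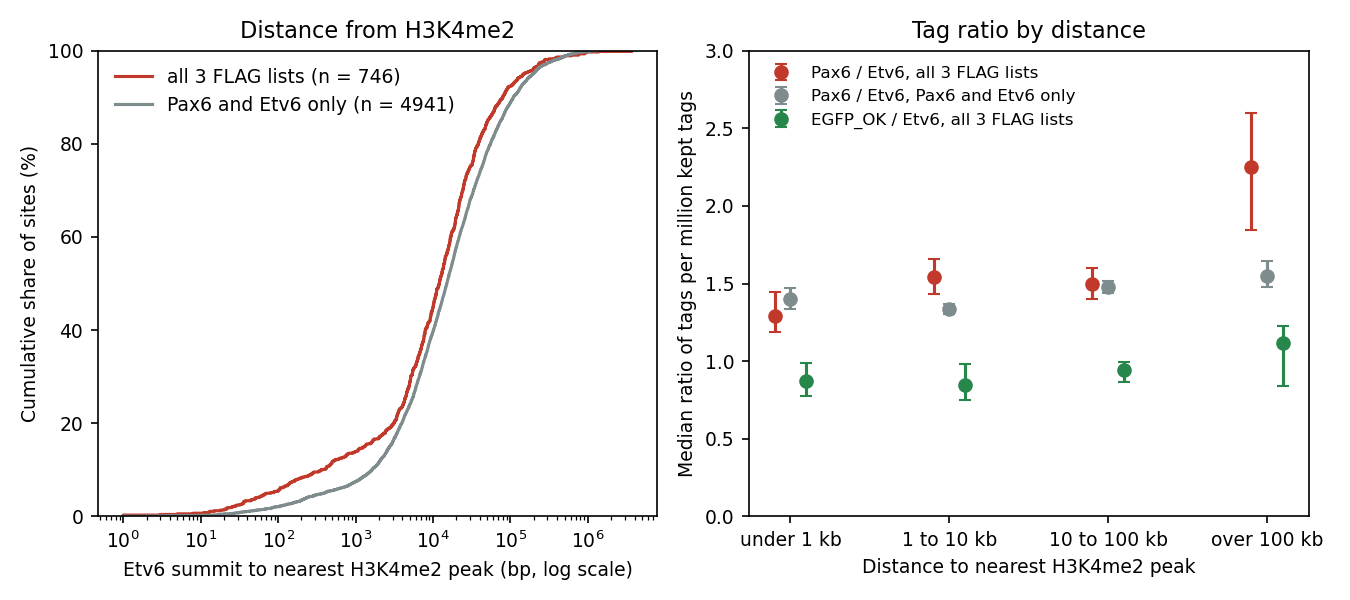
Left, cumulative share of sites (percent) by distance of the Etv6 summit from the nearest H3K4me2 peak (bp, log scale), for the 746 sites of all 3 FLAG lists (red) and the 4941 sites of Pax6 and Etv6 without EGFP_OK (grey). Right, median ratio of tags scaled to kept tags by distance, with 95% intervals of the median; the red point over 100 kb, at 2.25, stands above the grey point at 1.55.

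The ratio of Pax6 to Etv6 tags was highest at the 57 members over 100 kb from H3K4me2. Its median was 2.25 (1.84 to 2.60) there, against 1.55 (1.48 to 1.65) at the 548 sites without EGFP_OK at that distance. Nearer to the mark the members had medians of 1.29 (1.19 to 1.45) within 1 kb, 1.54 (1.43 to 1.66) at 1 to 10 kb and 1.495 (1.401 to 1.60) at 10 to 100 kb. A ratio of at least 2 was found at 32 of the 57 (56.1%, 42.4 to 69.3), against 142 of the 548 (25.9%, 22.3 to 29.8). Etv6 tags of the members were fewer with distance, with medians of 90 within 1 kb, 81, 65.5 and 48 over 100 kb, while the Pax6 medians were 24.5, 26, 22 and 27. The EGFP_OK medians were 64, 59, 53.5 and 44 in the same order. The far members were thus low in Etv6 and EGFP_OK tags and not in Pax6 tags.

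Folds showed the far group as well. Over 100 kb away the median fold of the members was 13.53 (11.78 to 17.14) in Pax6, 9.22 (7.81 to 10.04) in EGFP_OK and 7.60 (6.81 to 8.90) in Etv6. Within 1 kb the medians were 10.41 (9.77 to 11.62), 7.035 (6.66 to 7.74) and 7.445 (6.57 to 7.87). The Pax6 and EGFP_OK intervals of the near and the far members do not overlap, and those of Etv6 do. A higher Pax6 fold far from the mark was not particular to the members. At the sites without EGFP_OK the Pax6 median was 11.88 over 100 kb away and 10.56 within 1 kb. Their Etv6 medians were 7.35 and 7.04. The far members also had the narrowest Etv6 peaks, at a median of 994 bp, against 1471 bp within 1 kb. For Pax6 the median widths were 959 bp and 1140.5 bp. The part of width in the tag ratios by distance was not tested. Pax6 held at least as many tags as Etv6, before any scaling and with 0.220 times its kept tags, at 7 members (0.938%, 0.378 to 1.92). The share was 0.497% (0.239 to 0.912) at the sites inside H3K4me2 and 0.567% (0.377 to 0.818) at those without EGFP_OK. These intervals overlap. Over 100 kb away the counts were 4 of 57 members (7.02%, 1.95 to 17.0) and 3 of the 548 sites without EGFP_OK (0.547%, 0.113 to 1.59). The 7 members range from a place on chromosome 10 with 22 Pax6 and 22 Etv6 tags to one on chromosome 15, 5147 bp from H3K4me2, with 114 Pax6, 63 EGFP_OK and 101 Etv6 tags.

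The 3 most distant members show how unlike each other the far sites were. On chromosome 14, 3695626 bp from any H3K4me2 peak, an Etv6 peak at 4025173 to 4026953 (build mm9) had low folds of 4.28 in Pax6, 5.37 in EGFP_OK and 5.32 in Etv6, and summits spread over 1022 bp. On chromosome 6, at 80498837 to 80499516 and 1373815 bp away, the site had 41 Pax6, 56 EGFP_OK and 24 Etv6 tags, with folds of 18.66, 8.55 and 6.12. On chromosome 7, at 68484751 to 68485878 and 948310 bp away, it had 16, 25 and 76 tags, with folds of 15.83, 6.32 and 12.46. Pax6 held more tags than Etv6 at the chromosome 6 site and fewer at the chromosome 7 site.

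Summits measure whether the tagged proteins were enriched at one point, and the rule did not use the Pax6 and EGFP_OK summits. The Pax6 summit lay within 100 bp of the Etv6 summit at 484 members (64.9%, 61.3 to 68.3), against 56.3% (54.1 to 58.5) of the sites inside H3K4me2 and 64.2% (62.9 to 65.6) of the sites without EGFP_OK. The EGFP_OK summit did so at 318 members (42.6%, 39.0 to 46.3), against 46.5% (44.3 to 48.7) inside. The median distance from the Etv6 summit was 67.5 bp (60 to 76) for Pax6 and 129 bp (112 to 157) for EGFP_OK at the members, against 85 bp (79 to 89) and 115 bp (106 to 122) inside. At sites of all 3 lists, Pax6 summits were thus closer to Etv6 outside the mark than inside, and the EGFP_OK intervals overlap. Etv6 peaks were also narrower outside, and the part of width in this was not tested. Sites without EGFP_OK inside the mark were not described, so no such comparison was made for them. The median signed offset at the members was -3 bp (-9 to 4) for Pax6 and 1 bp (-10 to 9) for EGFP_OK. These offsets follow genome coordinates without orientation by motif or gene, so a side preferred relative to either could not be seen.

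**Figure D3:**
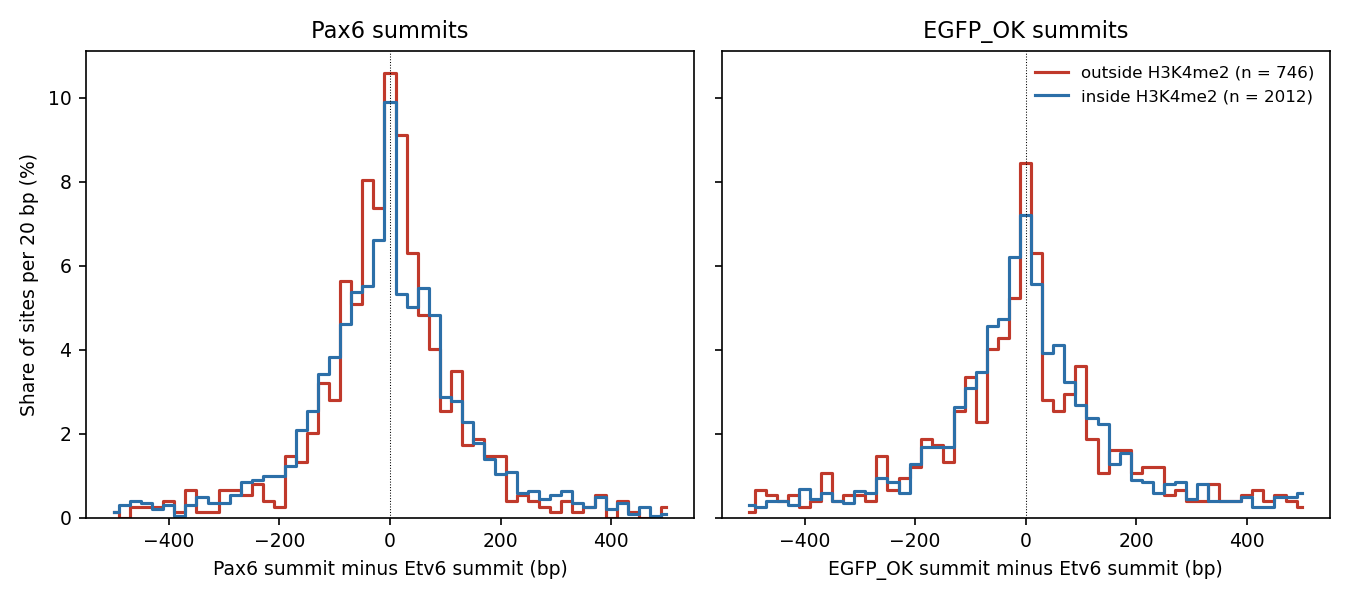
Share of sites per 20 bp (percent) by the signed distance of the Pax6 summit (left) and the EGFP_OK summit (right) from the Etv6 summit, for the 746 sites outside H3K4me2 (red) and the 2012 inside (blue). Both summits centre on the Etv6 summit, and 64.9% of Pax6 but 42.6% of EGFP_OK summits lie within 100 bp of it at the sites outside.

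At 245 members both partner summits were within 100 bp of the Etv6 summit, which is 32.8% (29.5 to 36.3), against 30.2% (28.2 to 32.2) of the sites inside. These 245 had higher folds than the other 501 members. In Pax6 the median was 12.83 (12.10 to 13.27), against 10.18 (9.88 to 10.49) at the others, in EGFP_OK 9.13 (8.40 to 9.70), against 6.82 (6.68 to 7.07), and in Etv6 8.17 (7.69 to 8.88), against 6.50 (6.27 to 6.72). Tag counts were nearly level, with Etv6 medians of 67 at the 245 and 75 at the others and EGFP_OK medians of 54 at the 245 and 55 at the others. Their Etv6 peaks were narrower, at a median of 1135 bp, against 1311 bp at the others. Peaks with a score of at least 100 in all 3 lists left 159 members, of which 48.4% (40.4 to 56.5) had all summits within 100 bp.

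The 10 members with the best worst rank by score over the 3 FLAG lists were high in every library because of that choice, and their values are a description. The first lay on chromosome 18, at 83712526 to 83713974 in the Etv6 list, 273555 bp from H3K4me2, with 94 Pax6, 364 EGFP_OK and 309 Etv6 tags and folds of 18.32, 14.87 and 14.77. It ranked 29 in Pax6, 8 in EGFP_OK and 13 in Etv6, and no H3K4me2 summit lay within 100 kb of it. The second, on chromosome 12 at 44073429 to 44074553, had its 3 summits within 7 bp of each other and 48955 bp from the mark. It held 57 Pax6, 203 EGFP_OK and 156 Etv6 tags. Of the 746 members, 15 were in the top 1000 of all 3 lists, which differ in length. Sites inside H3K4me2 were not counted in this way, so the count has no level to be read against.

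A site on chromosome 15, at 72398654 to 72399719, had the highest Pax6 fold of all members, 31.64, with 26.49 in EGFP_OK and 26.82 in Etv6. It lay 238940 bp from H3K4me2, with summits within 32 bp and 41 Pax6, 195 EGFP_OK and 118 Etv6 tags. On chromosome 2, a site at 157738623 to 157739754 had folds of 26.95, 25.95 and 25.52, and one at 32873387 to 32874053 had 24.14, 20.99 and 22.15, in the order Pax6, EGFP_OK and Etv6. All 3 libraries were thus about equally enriched over their own background at these places. By contrast, the site on chromosome 9 at 51842768 to 51844734 held many tags, 102 in Pax6, 336 in EGFP_OK and 214 in Etv6, at moderate folds of 12.11, 11.66 and 12.23.

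Among the remaining sites of the 10, those on chromosomes 8 and 13 were more uneven. On chromosome 8, at 14072232 to 14073203, Etv6 had 183 tags and a fold of 28.04, against 73 tags and 21.20 in EGFP_OK and 41 tags and 22.77 in Pax6. On chromosome 13, at 13952596 to 13953557, Pax6 led in rank, at 39, against 315 in EGFP_OK and 379 in Etv6, with 77, 182 and 99 tags. On chromosome 19, at 4988535 to 4989783, the folds were 20.96, 21.87 and 18.72 in Pax6, EGFP_OK and Etv6, in a stretch with 13 H3K4me2 summits within 100 kb. The site on chromosome 18 at 55292836 to 55294505 lay only 45 bp from H3K4me2 and its Etv6 peak reached into it. The folds there were 11.33 in Pax6, 13.82 in EGFP_OK and 12.73 in Etv6. In each of the 10 the summits spanned at most 92 bp.

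**Figure D4:**
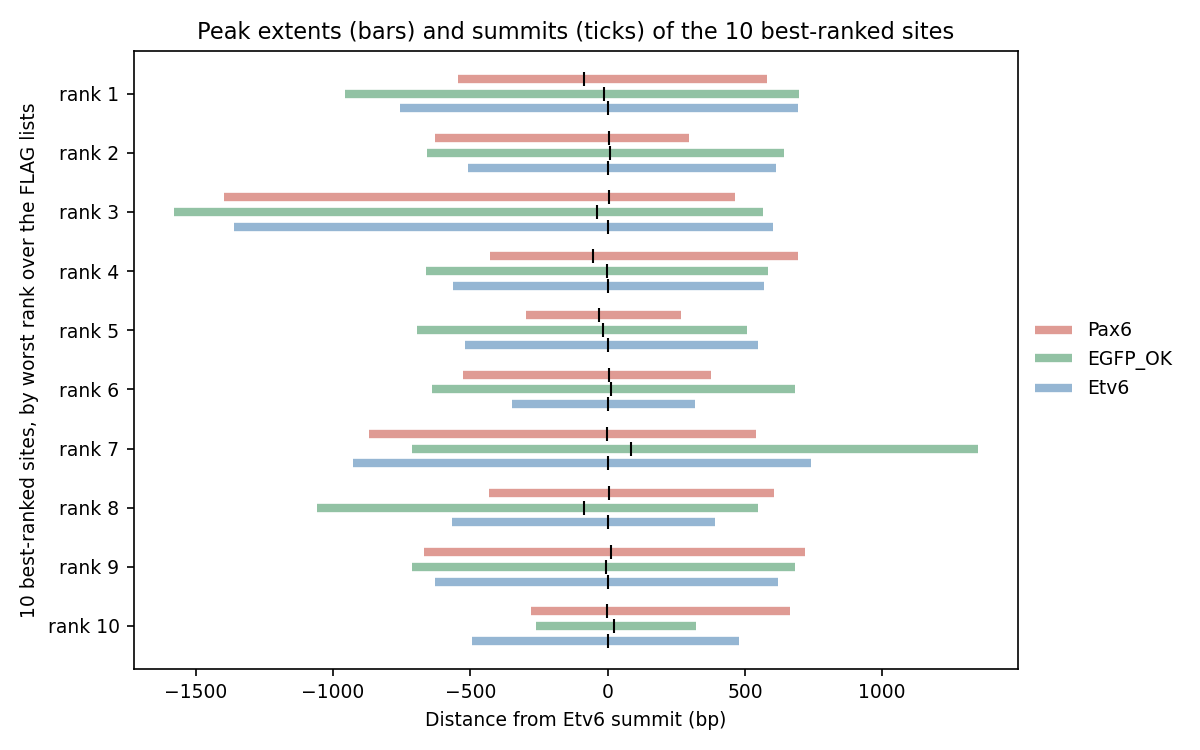
Extents (bars) and summits (black ticks) of the Pax6, EGFP_OK and Etv6 peaks at the 10 sites outside H3K4me2 with the best worst rank, in bp from the Etv6 summit, which is at 0. All summits of a site fall within 92 bp, while the bars differ in length.

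Single libraries led at other members. The highest Etv6 and EGFP_OK folds, 33.98 and 26.96, were both at chromosome 7, 6362542 to 6363491, which held 178 Etv6 and 109 EGFP_OK tags but 22 Pax6 tags at a fold of 24.49. Behind the chromosome 15 site, the highest Pax6 folds were 30.32 on chromosome 5 (106605643 to 106606191) and 30.25 on chromosome 2 (41751243 to 41752142). These had 26 and 30 Pax6 tags, 33 EGFP_OK tags each, and 32 and 35 Etv6 tags, with EGFP_OK folds of 11.15 and 11.52 and Etv6 folds of 11.86 and 11.48. Both are over 100 kb from H3K4me2, at 200475 and 756225 bp. On chromosome 2 the 3 summits lay within 4 bp. These are among the far sites where Pax6 tags are high relative to Etv6.

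Sites nearest to the H3K4me2 edge varied on either side of it. Just outside, at 1 bp from an H3K4me2 peak, the Etv6 peak on chromosome 15 at 42505890 to 42509656 had folds of 6.55 in Pax6, 6.22 in EGFP_OK and 5.71 in Etv6, and that on chromosome 7 at 79771811 to 79773074 had 16.73, 12.15 and 14.21. At 3 bp outside, chromosome 13 from 39931011 to 39932330 had 9.18, 9.62 and 8.35. The sites just inside were on chromosome 12 (42827802 to 42828942), with 13.78, 18.42 and 7.64, on chromosome 11 (74256196 to 74257375), with 11.28, 5.26 and 5.83, and on chromosome 7 (52103710 to 52106034), with 12.44, 4.72 and 6.79. Etv6 folds ran from 5.71 to 14.21 just outside and from 5.83 to 7.64 just inside.

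Members were scattered one by one. The median distance to the nearest other member was 785168 bp (704149 to 891520), against 201324.5 bp (177933 to 222999) between the sites inside H3K4me2, which are more numerous. Another member lay within 100 kb for 102 members (13.7%, 11.3 to 16.3), and 701 sites inside (34.8%, 32.8 to 37.0) had another such site that near. No stretch of 100 kb that starts at a member held more than 2 members, and 52 held 2. One on chromosome 1, from 14618843 to 14718842, had 2 members among 2 Pax6, 3 EGFP_OK and 5 Etv6 summits, with no H3K4me2 summit. A pair of others with 2 members each began on chromosome 2 at 50830850 and 62261645.

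The surroundings of the members held FLAG peaks at about the density found around the sites inside H3K4me2, but fewer H3K4me2 peaks. Within 100 kb of a member there were medians of 3 Pax6, 5 EGFP_OK and 5.5 Etv6 summits, the member's own included, and 5 H3K4me2 summits. Around the sites inside the medians were 3, 5, 6 and 8. Sites of Pax6 and Etv6 without EGFP_OK had medians of 4 Pax6, 3 EGFP_OK, 6 Etv6 and 4 H3K4me2 summits. A site of all 3 lists inside H3K4me2 lay within 100 kb of 207 members (27.7%, 24.6 to 31.1).

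The share of sites of all 3 lists that lay outside H3K4me2 differed between chromosomes. It was highest on chromosome 18, with 38 of 92 sites (41.3%, 31.1 to 52.1), and lowest on chromosome 11, with 26 of 177 (14.7%, 9.83 to 20.8). These intervals do not overlap, but they belong to the extremes of 19 chromosomes and are not adjusted for that choice. All other chromosomes had intervals that cover the 27.0% over all of them. Over all Etv6 peaks, 55.8% (52.8 to 58.7) on chromosome 18 and 39.5% (37.4 to 41.6) on chromosome 11 were outside, so both shares were higher on chromosome 18 than on chromosome 11. Across the 19 chromosomes Spearman's rho of both shares was 0.61, a description in which members are part of the Etv6 peaks. By number, chromosome 3 held the most members, 60, or 8.04% (6.19 to 10.2), against 7.38% of all Etv6 peaks. Chromosome 14 held the fewest, 20, or 2.68% (1.65 to 4.11), against 2.55% of all Etv6 peaks, so both counts are near the spread of Etv6 peaks.

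**Figure D5:**
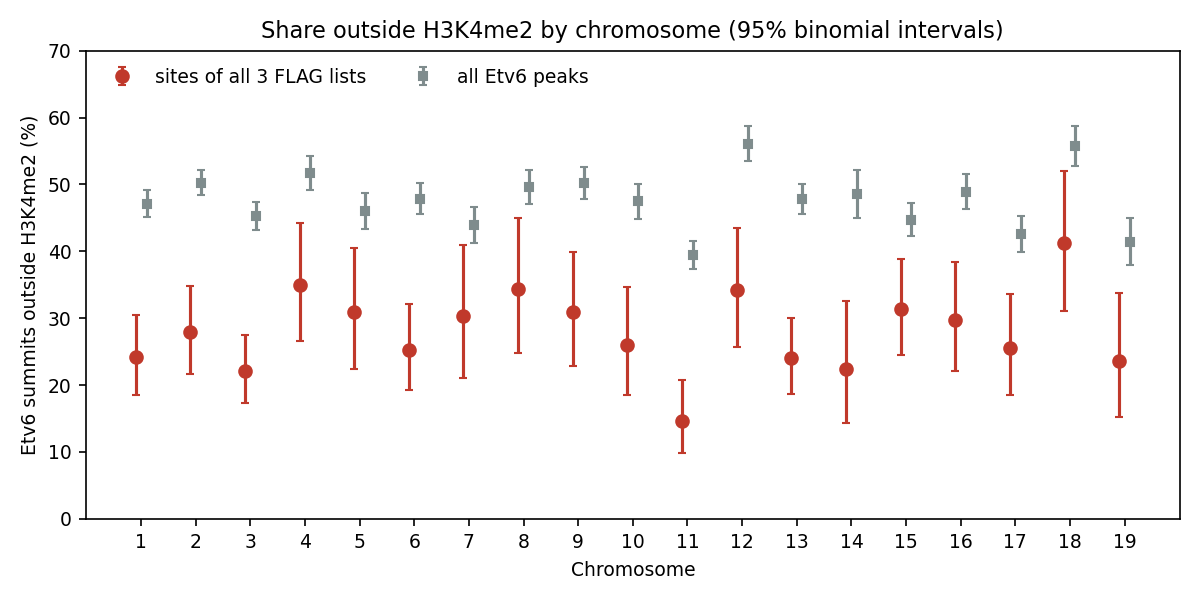
Percent of Etv6 summits outside H3K4me2 on each of chromosomes 1 to 19, for sites of all 3 FLAG lists (red circles) and all Etv6 peaks (grey squares), with 95% exact binomial intervals. Chromosome 11 is lowest in both, at 14.7% and 39.5%.

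Positions follow build mm9, which the submitters' processing notes name. The regions were not assigned to genes, exons or promoters, and no sequence of them is shown, since the genome and annotation of that build were not used here.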

How the data were processed

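Build mm9 and the tools CASAVA (1.8.1), BWA (0.6.2) and MACS (1.4.2) are named, in no order, by the submitters' processing notes. MACS called each library on its own, per the file headers, without a control, at a p cutoff of 1e-05, with 1 tag kept per position. The deposited tag counts per peak are not normalized. The score deposited by the authors is 10 times the −log10 of the caller's p-value and the fold is the ratio of summit to local background, per the file headers. Peak width and summit are deposited in bp. Headers give redundant rates of 81% for Pax6, 39% for EGFP_OK, 22% for Etv6 and 16% for H3K4me2.

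Overlaps were computed in Python 3.11.15 (pandas 2.3.3, numpy 2.4.6, scipy 1.17.1) and were checked on simulated lists. Where a member met several partner peaks (1 member for Pax6, 2 for EGFP_OK), the nearest summit was used. Intervals of shares are exact (Clopper-Pearson), those of medians come from order statistics, and both cover counting error only. Regions were named by rule: the 10 best by worst rank, the 3 highest folds per list, the 3 farthest from H3K4me2, 3 on either side of its edge, and up to 3 windows. The sites, lists and comparisons were chosen with earlier results of these data known, and the counts by tag ratio, the division into 4 parts by rank, the split by summit distance and the chromosome shares were added after values were seen. Planned gene, promoter and motif counts were not run, for want of an mm9 reference. Alternatives changed the overlap, score, H3K4me2 rule, anchor list and chromosomes.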

Additional observations from a re-analysis of the deposited data

Results flagged for a closer look

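The rule stops at chromosome 19, and sites that meet it elsewhere were outside the comparisons. On chromosome X 16 of 28 sites of all 3 FLAG lists lay outside H3K4me2 (57.1%, 37.2 to 75.5), with a median Etv6 fold of 7.15. On chromosome Y and unplaced sequences together, 4 of 13 did (30.8%, 9.09 to 61.4), with a median Etv6 fold of 7.195. Both counts stand here because they exceed 3, the limit that a count of 0 allows, which is no expected number for such sites.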

How the results depend on the processing

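The 746 members became 245 when both partner summits had to lie within 100 bp, and 159 at a score of at least 100 in all FLAG lists. Under the other 9 alternatives the count stayed between 642 and 982. The share of sites of all 3 lists outside H3K4me2, 27.0%, was 28.8% with summits within 100 bp, 23.6% when the whole Etv6 peak had to clear H3K4me2, 23.3% at a distance of at least 1000 bp, 25.3% with all FLAG summits outside and 35.6% against H3K4me2 peaks of a score of at least 100. The share of members with all summits within 100 bp, 32.8%, was 48.4% at a score of at least 100 and 31.7% to 36.2% otherwise. Of 33 recomputed median folds, 27 stayed within the main intervals, and the 6 others were higher under the summit and score limits. The median distance of members from H3K4me2, 12071.5 bp, moved to 15099 bp when the whole Etv6 peak had to clear H3K4me2, 15373.5 bp at a distance of at least 1000 bp and 18050.5 bp against H3K4me2 peaks of a score of at least 100. Ranked by fold, 5 of the 10 best-ranked sites were named again. Leaving out the top-20 regions of any library removed 4 members. The Pax6 depth limits which sites could be called in all lists. No paired analysis was possible because each group has 1 library.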
